A study of Mus musculus with 20 samples.

Results

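Among 22048 protein-coding genes measured by RNA-seq in mouse CD4+ T cells, 127 had next to no reads in wild-type (WT) cells. They had clear reads in knockout (KO) cells, in which the gene of the histone methyltransferase DOT1L was targeted for deletion. The 127 genes were chosen by their measured values. A gene was taken when it lay under 0.5 CPM (the count of a gene as a share of the protein-coding counts of its library, times 1e6) in all 6 WT libraries grown without compound and at 1 CPM or more in both libraries of at least 1 KO group. Names starting with Mcpt, Gzm, Klr, Fcgr, Hist or Hb were left out, which removed 1 gene, Klra17. Of the 22048 genes, 8687 met the WT condition. Because the KO and WT values of these 127 genes selected them, those values are given as a description without a test.

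The KO cells came from CD4Cre+ DOT1L FL/FL mice, in which the Cd4 promoter drives Cre in the T lineage and Cre cuts loxP-flanked Dot1l alleles. The WT cells came from mice with the same Cre and no floxed allele, so that both genotypes carried Cre. CD4+ cells of spleen and peripheral lymph nodes were sequenced unstimulated (naive) or following 4 days of stimulation through CD3 and CD28 with IL-2 under Th1 conditions (IL-12 and an antibody against IL-4) or Th2 conditions (IL-4 and an antibody against IFN-γ), when viable CD4+ cells were sorted. WT Th1 and Th2 cultures also received SGC0946, an inhibitor of DOT1L, or SGC0649, its control compound, each at 1 µM. The groups used here are KO naive, KO Th1 and KO Th2, WT Th1 and Th2 with SGC0946, WT Th1 and Th2 with SGC0649, and WT naive, Th1 and Th2, with 2 libraries each. No label gives an age or strain, or states that replicates are separate mice, so p-values measure the spread between libraries.

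DOT1L methylates a lysine in the globular core of histone H3, and this mark lies over the bodies of transcribed genes. Genes that a T cell does not use are kept off by other systems, among them the Polycomb complexes, DNA methylation, methylation of lysine 9 on histone H3 and histone deacetylases. Helper T cells become Th1 or Th2 cells by switching on one set of cytokine genes and holding another set silent.

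The libraries held 9704500 to 13025588 protein-coding counts, so 0.5 CPM stood for 4.85 to 6.51 counts and 1 CPM for 9.70 to 13.03 counts. The highest count of any of the 127 genes in a WT library without compound was 6, and the median over these 6 WT libraries together was 9 counts. Only 4 of the genes had no count at all in WT, so they were low rather than absent there. The Dot1l gene itself had 157 and 175 CPM in KO naive cells against 164 and 169 CPM in WT naive cells, 140 and 158 CPM in KO Th1 against 172 and 183 CPM in WT Th1, and 99.0 and 81.3 CPM in KO Th2 against 146 and 164 CPM in WT Th2. These are counts over the whole gene and do not show whether the floxed part is missing. In bulk RNA, a change in the share of cells that read a gene and a change in the RNA per cell cannot be told apart.

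Most of the genes reached the floor of 1 CPM in a single KO group, though many were above WT in another. In KO Th1 alone 45 genes reached the floor, in KO Th2 alone 43 and in KO naive cells alone 15. Both cultures but not naive cells shared 16, naive cells and Th1 shared 3, naive cells and Th2 shared 1, and 4 genes were at the floor in all 3 KO groups. Of the 68 on in KO Th1, shared ones included, 21 were under 0.5 CPM in both KO Th2 libraries. Their median was 0.73 CPM in KO Th2 and 0.17 CPM in WT Th2. Of the 64 on in KO Th2, 25 were under 0.5 CPM in both KO Th1 libraries, with medians of 0.53 CPM in KO Th1 and 0.08 CPM in WT Th1. The levels were low. Per kilobase of exon, the median in KO cells was 0.715 CPM for the 23 genes on in naive cells, 0.771 CPM for the 68 on in Th1 and 0.729 CPM for the 64 on in Th2, where all protein-coding genes at the same floor had medians of 9.09, 9.12 and 7.53 CPM per kilobase. Genes at the edge of the rule show how it divides a continuous range. Etl4, Gpr176, Olfr536 and Agmo were just inside the KO floor (1.04 to 1.05 CPM in the lower library of their best KO group), and Grb14, Zfp786, Wtip and Atp8b1 just outside at 0.999 CPM. Gipc2, Ffar1, Nrip3 and Olfr524 were just inside the WT ceiling at 0.499 CPM, and Ppp1r3d, Mageh1, Slc29a4 and Psg17 just outside at 0.515 CPM.

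**Figure D1:**
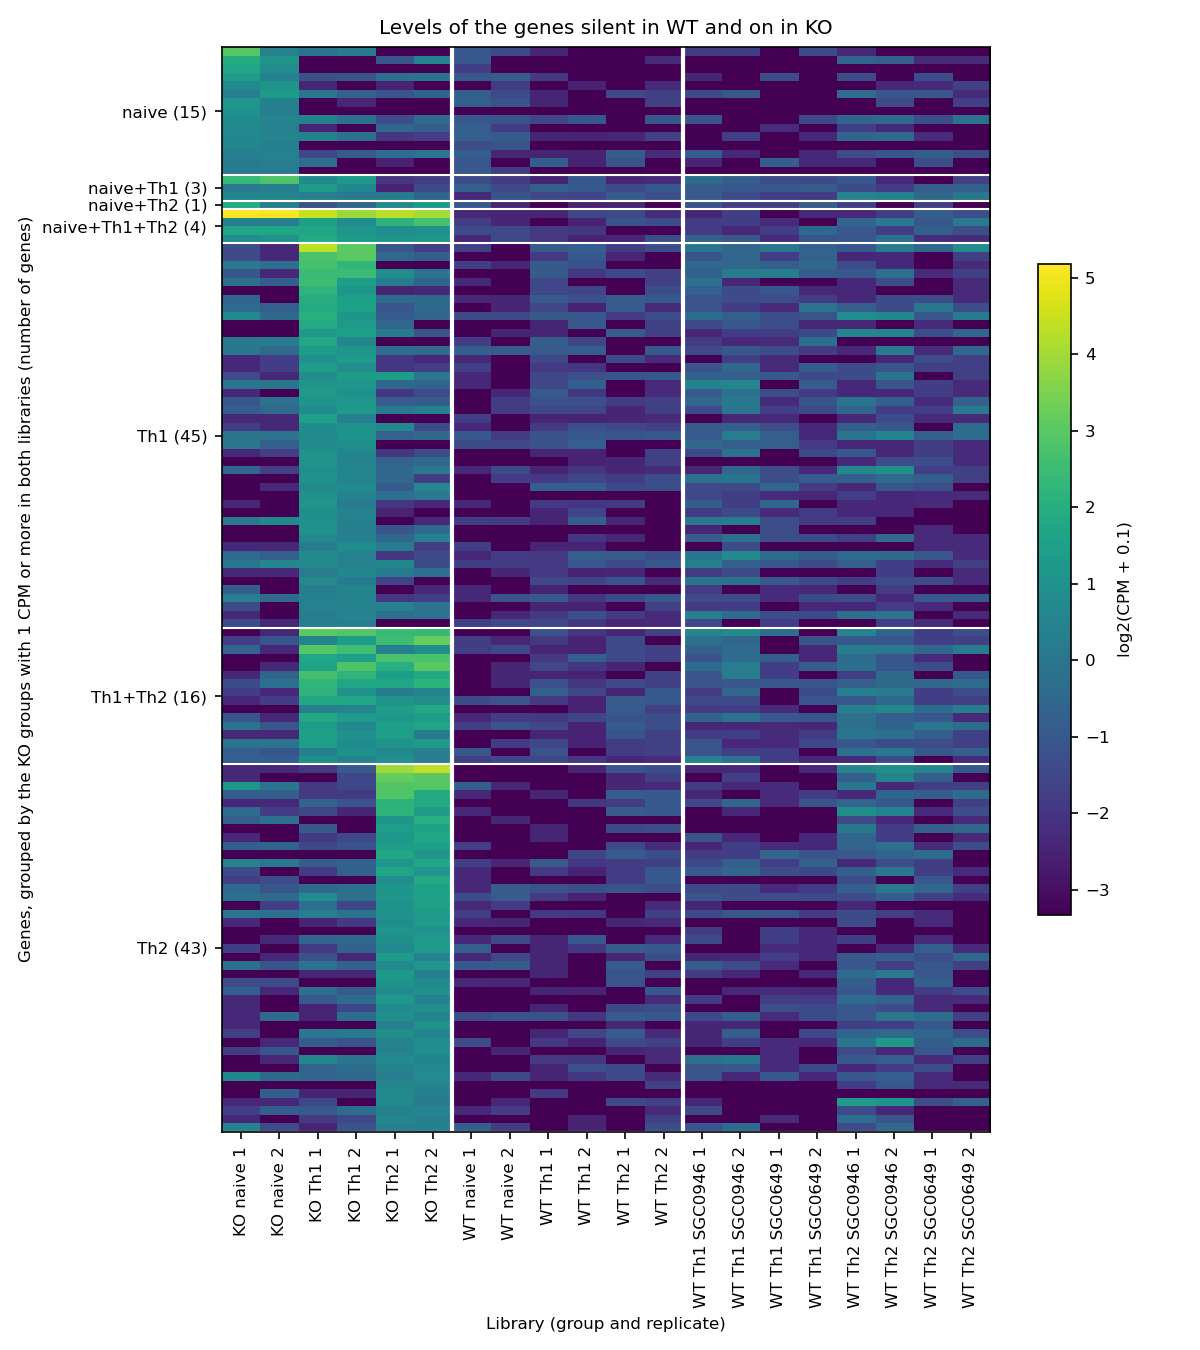
Level of each of the 127 genes (rows, grouped by the KO groups in which both libraries held 1 CPM or more) in each of the 20 libraries (columns), as log2(CPM + 0.1), with KO libraries on the left, WT libraries without compound in the middle and WT libraries with SGC0946 or SGC0649 on the right. The 45 genes of the Th1 block and the 43 of the Th2 block were mostly brightest in KO libraries of their own culture. The SGC0946 columns of the Th2 cultures were brighter than those of SGC0649 for some rows.

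Among secreted proteins, Wnt9a, a ligand of the Wnt pathway, had 198 and 224 counts in the KO Th2 libraries against 4 and 3 in WT Th2, a mean of 18.2 ± 4.25 CPM in KO and 0.333 ± 0.0344 CPM in WT (SD, n = 2 each). It had no more than 5 counts in any other KO library, so it was high in KO Th2 alone. Tff1, a trefoil peptide of the gastric mucosa, had 39 and 31 counts in KO Th1 and 86 and 69 in KO Th2, against 2 and 6 in WT Th1 and 3 and 2 in WT Th2. Htra3, a secreted serine protease, had 16 and 30 counts in KO Th1 and 74 and 97 in KO Th2, against 2 and 1 in WT Th1 and 3 and 0 in WT Th2. For these genes no KO culture that reached the floor overlapped its WT counterpart, as the rule requires. Il27, the p28 subunit of the cytokine IL-27, which myeloid cells make, had 95 and 38 counts in KO Th2 against 5 and 4 in WT Th2. Its KO libraries differed more than those of Wnt9a.

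Among receptors and adhesion molecules, Sstr3, a somatostatin receptor, had 97 and 85 counts in KO Th1 and 69 and 54 in KO Th2, against 4 and 2 in WT Th1 and 1 and 2 in WT Th2. Cadm3, an adhesion molecule of the nervous system, had 78 and 54 counts in KO Th1 against 5 and 4 in WT Th1, and none in either KO Th2 library. Cadm3 was thus high in KO Th1 and not in KO Th2, and Sstr3 in both. Cacng8, an auxiliary subunit of glutamate receptors, had 57 and 36 counts in KO Th1 and 40 and 47 in KO Th2, against 4 and 2 in WT Th1 and 3 and 2 in WT Th2. Snap25, a protein of the synaptic vesicle fusion machinery, had 21 and 15 counts in KO Th1 against 1 and 3 in WT Th1, and is the single gene of the 127 on a list of cell type markers (neuron). The neuron list of 6 genes summed to 6.99 and 10.3 CPM in KO Th1 against 2.58 and 4.56 CPM in WT Th1, with Stmn2 and Syt1 at 0 in both KO libraries.

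Among enzymes, Maob, a mitochondrial monoamine oxidase, had 245 and 93 counts in KO Th1 against 5 and 6 in WT Th1, and its mean of 14.3 ± 8.68 CPM in KO Th1 had the widest spread of the leading genes. Chst1, a sulfotransferase that acts on keratan sulfate, had 95 and 80 counts in KO Th2 against 1 and 1 in WT Th2. Papl, listed in RefSeq as Acp7, an acid phosphatase, had 117 and 84 counts in KO Th2 against 1 and 2 in WT Th2. These genes differed in culture: Maob was high in KO Th1, Chst1 and Papl in KO Th2. Inpp5j, an inositol polyphosphate phosphatase, had 35 and 81 counts in KO Th1 and 53 and 84 in KO Th2, against 3 and 2 in WT Th1 and 1 and 0 in WT Th2. Ppp2r2c, a regulatory subunit of protein phosphatase 2A, had 76 and 53 counts in KO Th1 and 33 and 37 in KO Th2, against 1 and 1 in WT Th1 and 0 and 2 in WT Th2. Both were on in the 2 cultures and low in KO naive cells, where neither passed 6 counts.

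Among nuclear and other intracellular proteins, Zfp57, the zinc finger protein that maintains DNA methylation at imprinted genes, had 90 and 65 counts in KO Th1 and 15 and 19 in KO Th2, against 1 and 1 in WT Th1 and 3 and 2 in WT Th2. Pir, the nuclear protein pirin, had 81 and 93 counts in KO Th1 against 2 and 5 in WT Th1. Zfp503, a zinc finger repressor, had 59 and 26 counts in KO Th2 against 5 and 4 in WT Th2. Zfp57 and Pir were thus higher in KO Th1 than in KO Th2, and Zfp503 in KO Th2. Sycp2l, related to a protein of the meiotic synaptonemal complex, had 58 and 38 counts in KO Th2 against 2 and 4 in WT Th2. Nlrp6, a sensor protein of inflammasomes, had 69 and 30 counts in KO Th1 against 3 and 0 in WT Th1. Scel, a precursor of the cornified envelope of epithelia, had 66 and 62 counts in KO Th1 against 5 and 2 in WT Th1.

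**Figure D2:**
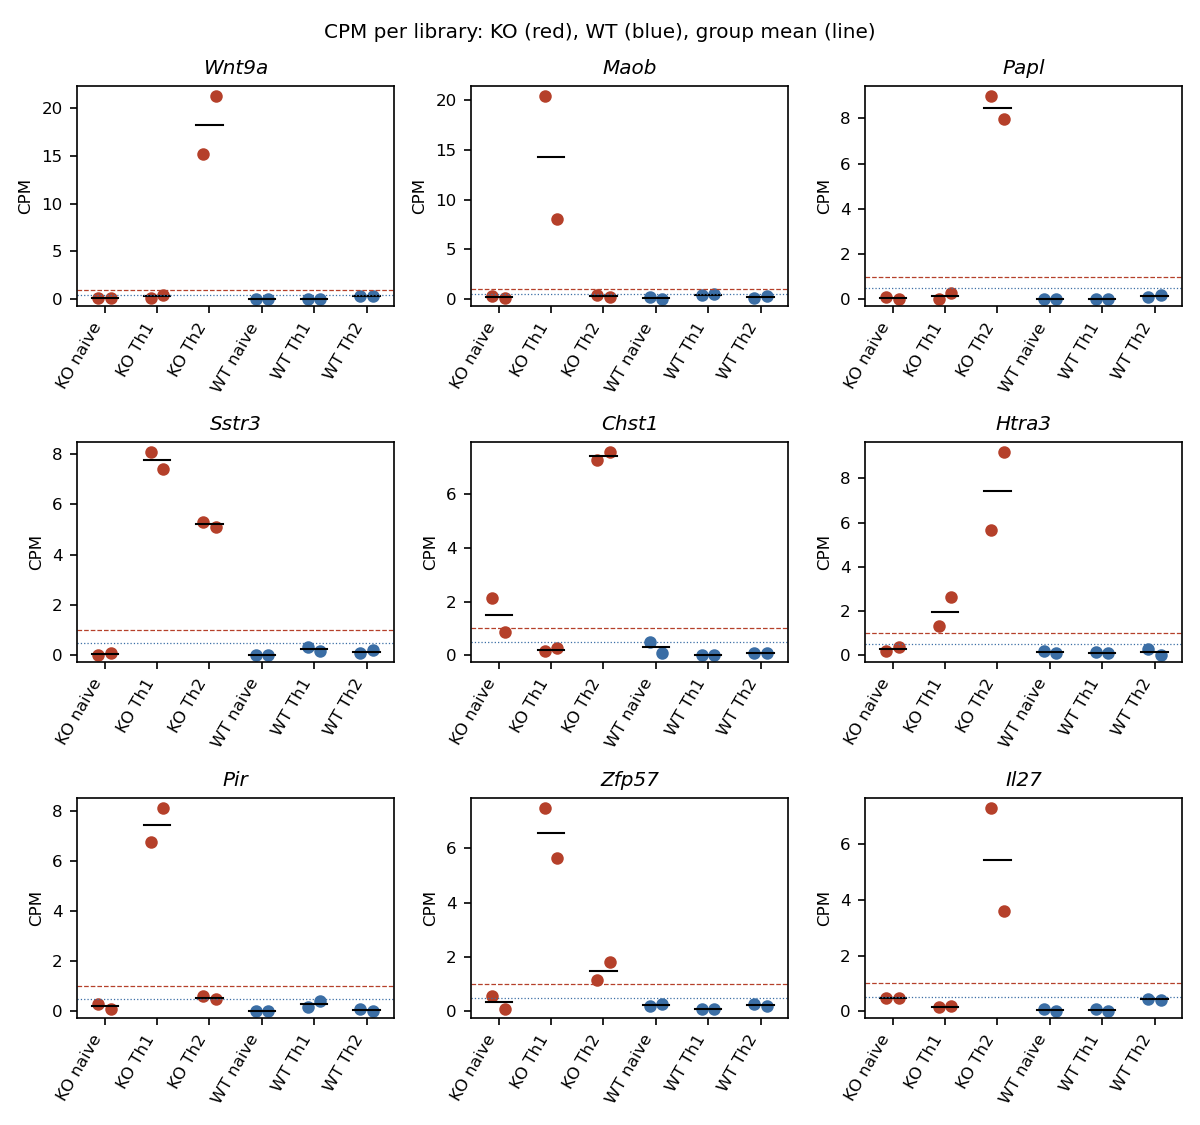
Level in CPM (linear axis, own scale for each gene) of 9 leading genes in each KO library (red points, left) and each WT library without compound (blue points, right), with the mean of the 2 libraries as a line, 1 CPM as a dashed line and 0.5 CPM as a dotted line. Wnt9a, Papl, Chst1 and Il27 stand highest in KO Th2, Maob, Pir and Zfp57 in KO Th1, and Sstr3 is high in both KO cultures.

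In this paragraph, WT libraries are the 6 without compound. Few genes were high in every KO group. The highest of all was Gm13225, a gene with a provisional name that was singled out after its values were seen: 374 and 360 counts in KO naive cells, 267 and 172 in KO Th1 and 255 and 168 in KO Th2, against 1 and 1 in WT naive, 1 and 3 in WT Th1 and 3 and 1 in WT Th2. Here all 6 KO libraries stood far above all 6 WT libraries. Wscd1 had 12 and 12 counts in KO naive cells, 33 and 20 in KO Th1 and 58 and 68 in KO Th2, and no more than 4 in any WT library. Nap1l3, of the nucleosome assembly protein family, had 17 and 20 counts in KO naive cells, 43 and 26 in KO Th1 and 26 and 22 in KO Th2, and no more than 3 in any WT library. Both were high in all KO groups, at lower levels than Gm13225. Amdhd1, an enzyme of histidine breakdown, had 9 and 9 counts in KO naive cells, 31 and 19 in KO Th1 and 26 and 24 in KO Th2, against at most 3 in a WT library. Khdrbs3, an RNA-binding protein that regulates splicing, had 9 and 9 counts in KO naive cells, 19 and 22 in KO Th1 and 7 and 7 in KO Th2, against 2 to 5 in the WT libraries. Ranbp17, of the importin family, had 30 and 24 counts in KO Th1 against 5 and 6 in WT Th1. For Amdhd1 and Khdrbs3 the naive KO libraries lay below 1 CPM and yet above every WT count without compound. WT Th2 cultures with SGC0946 had more, at 9 and 14 counts for Khdrbs3, 6 and 10 for Wscd1 and 4 and 8 for Nap1l3. Col8a2, a chain of type VIII collagen, had 27 and 30 counts in KO Th2 against 0 and 0 in WT Th2. Apol11b, an apolipoprotein L family member, led the genes on in naive cells alone, with 81 and 13 counts in KO naive cells against 4 and 3 in WT naive cells. Its KO naive libraries thus differed widely. Gm13225, the Olfr and Klk1b genes and Apol11b have close relatives in the genome, so their counts are uncertain where reads could fit several of them.

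The libraries also differed in markers of other cell types, and the part of these cells in the levels above was not tested. In KO Th1, the 13 mast cell and basophil markers, all detected, summed to 2537 and 1111 CPM, against 213 and 171 CPM in WT Th1, where Slc6a4 was at 0. The library with more of these markers, KO Th1 replicate 1, was also the higher one for 48 of the 68 genes on in KO Th1. Maob was among these 48 (245 against 93 counts), but not Pir, Htra3 or Inpp5j. In WT Th1, replicate 1 was likewise the higher one for 42 of the same 68 genes and the lower one for 24. No share over all genes is given for this order. In KO naive cells the 8 B cell and plasma cell markers summed to 645 and 274 CPM against 139 and 88.8 CPM in WT naive cells, and the monocyte, macrophage and dendritic cell markers to 2038 and 940 CPM against 738 and 553 CPM. Both lists were higher in KO naive replicate 1, as was Apol11b. In KO Th2 the 2 CD8 markers summed to 114 and 235 CPM against 12.8 and 16.2 CPM in WT Th2, the 10 neutrophil and eosinophil markers to 199 and 301 CPM against 40.9 and 7.63 CPM (Ear2 and Retnlg at 0 in KO), and the 6 epithelial markers to 112 and 97.5 CPM against 36.4 and 32.4 CPM (Krt5 at 0 in both genotypes). Nearly all of the neutrophil and eosinophil sum was Ly6g, with 197 and 288 CPM in KO Th2 against 8.50 and 5.46 CPM in WT Th2; the other 9 markers summed to 2.07 and 13.4 CPM in KO Th2 against 32.4 and 2.16 CPM in WT Th2, where the genotypes overlapped. The 8 stromal and endothelial markers summed to 357 and 445 CPM in KO Th2 against 172 and 151 CPM in WT Th2, with Col3a1 and Cdh5 at 0 in both. In KO Th1 the 8 erythroid and platelet markers summed to 98.4 and 86.4 CPM against 11.2 and 9.37 CPM in WT Th1, with Alas2 and Slc4a1 at 0 in KO.

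The 10 T cell markers, none at 0, summed to 4967 and 5409 CPM in KO naive cells against 5881 and 5944 CPM in WT naive cells, to 4989 and 4896 CPM in KO Th1 against 6771 and 6665 CPM in WT Th1, and to 4283 and 4970 CPM in KO Th2 against 4347 and 4108 CPM in WT Th2. Cd4, the coreceptor by which the cells were sorted, had 153 and 138 CPM in KO Th2 against 573 and 541 CPM in WT Th2, and Cd5, a surface protein of T cells, had 10.9 and 16.1 CPM against 292 and 297 CPM. Both genes were thus lower in KO Th2, although the sum of the list was not. The part of these markers in the levels of the 127 genes was not tested.

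The WT cultures with SGC0946 gave a reading of the same genes that the rule did not use. With the control compound SGC0649, 110 of 127 were under 0.5 CPM in both Th1 libraries (86.6%) and 91 in both Th2 libraries (71.7%), where 99.4% and 98.7% of the 8560 other WT-silent genes were. With SGC0946, 88 of 127 were under it in both Th1 libraries and 73 in both Th2 libraries, where 8493 and 8436 of the 8560 others were. The others began from a lower level. Of the 8687 WT-silent genes, 6024 had no count in the 6 WT libraries without compound, against 4 of the 127. With the inhibitor the summed level of the 127 genes was 38.8 and 42.7 CPM in Th1, against 22.8 and 21.8 CPM with SGC0649, and 54.4 and 57.5 CPM in Th2, against 30.7 and 28.9 CPM with SGC0649. In both cultures the SGC0946 libraries were above the SGC0649 libraries. The KO sums were 243 and 192 CPM in Th1 and 222 and 231 CPM in Th2. Without compound the WT sums were 19.1 and 18.7 CPM in Th1 and 20.7 and 21.8 CPM in Th2. The rule chose the genes by these KO and WT values, so the sums do not measure the inhibitor against the deletion. The 8560 other WT-silent genes also summed higher with the inhibitor. Their sums were 175 and 173 CPM with SGC0946 against 139 and 141 CPM with SGC0649 in Th1. In Th2 they were 260 and 275 CPM against 213 and 206 CPM. The mast cell and basophil markers summed to 261 and 241 CPM with SGC0946 and 260 and 238 CPM with SGC0649 in Th1, and to 583 and 564 CPM with SGC0946 and 420 and 407 CPM with SGC0649 in Th2. Other lists also differed between the compounds. Higher with the inhibitor were the epithelial markers in Th2, at 91.2 and 72.2 CPM with SGC0946 against 38.0 and 25.2 CPM with SGC0649, the gamma delta T cell markers in Th1, at 106 and 111 CPM against 50.8 and 42.7 CPM, and the neutrophil and eosinophil markers in Th1, at 448 and 451 CPM against 275 and 318 CPM, nearly all of it Ly6g. The gamma delta T cell markers were lower with it in Th2, at 44.3 and 37.2 CPM against 92.3 and 72.2 CPM. The part of these markers in the levels of the 127 genes was not tested.

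Gene by gene, most had a higher fitted level with the inhibitor, but few passed a test. All 127 passed the filter on low counts, which they owed to the KO libraries. With the filter run on the 4 libraries of each contrast alone, 4 of the 127 were tested in Th1 and 11 in Th2, and 0 were called in either, so the calls below were not kept with those libraries alone. In Th1 the fitted log2 change was above 0 for 84 genes and below 0 for 28, with a median of 0.69, where all 13072 genes tested had a median of -0.004 and the 1512 other genes that averaged under 1 CPM in these libraries a median of 0.26. In Th2 it was above 0 for 100 genes and below 0 for 20, with a median of 0.86, against 0.01 for all genes and 0.11 for 1155 other genes under 1 CPM. Without WT Th1 SGC0946 replicate 2 the Th1 median was 0.31, with 78 genes above 0 and 31 below. The 68 genes on in KO Th1 had a median of 0.83 in the Th1 cultures, with 56 above 0 and 11 below, and the 64 on in KO Th2 a median of 1.19 in the Th2 cultures, with 55 above and 7 below. Both SGC0946 libraries were above both SGC0649 libraries for 40 of 127 genes in Th1 (31.5%, background over all genes 22.6%) and for 44 in Th2 (34.6%, background 20.2%). They were below for 8 genes in Th1 (6.30%, background 24.5%) and 9 in Th2 (7.09%, background 25.7%). For the other genes under 1 CPM, 26.0% were above and 11.7% below in Th1, and 20.2% above and 16.6% below in Th2, so other genes of low level were also more often above than below in Th1. Leaving out the 20 genes that lie within 500 kb of one another gave medians of 0.53 in Th1 and 0.86 in Th2, with 68 and 85 of 107 genes above 0.

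**Figure D3:**
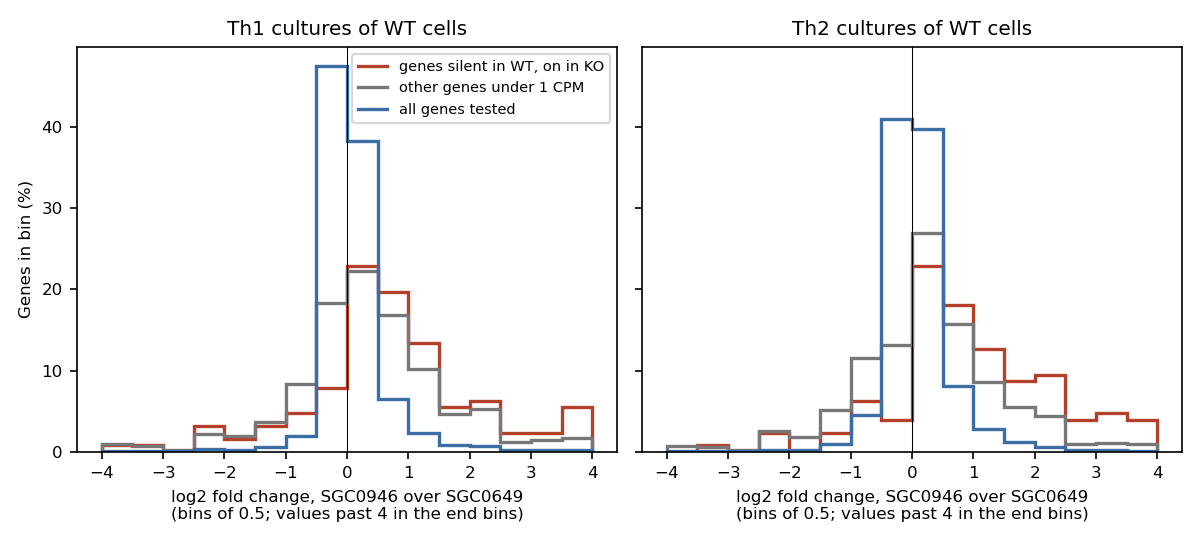
Share of genes (%, vertical axis) by log2 fold change of SGC0946 over SGC0649 (horizontal axis, bins of 0.5, values of exactly 0 counted right of the line) in Th1 and Th2 cultures of WT cells, for the 127 genes silent in WT and on in KO (red), other genes averaging under 1 CPM (grey) and all 13072 genes tested (blue). The red medians are 0.69 in Th1 and 0.86 in Th2, with 28 genes below 0 in Th1 and 20 in Th2.

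By edgeR's quasi-likelihood test with Benjamini-Hochberg adjustment over all 13072 genes, 0 of the 127 were called in Th1 in either direction (background 0.405% higher and 0.0612% lower), nor were any of the 1512 other genes under 1 CPM. At an unadjusted p under 0.05, 14 were higher and 1 lower in Th1, where 833 of the 13072 genes were higher and 460 lower, and 89 of the 1512 genes were higher and 16 lower. DESeq2 called 0 of the 127 in Th1 and limma voom 1. In Th2, 5 were called higher and 0 lower (background 5.45% higher and 2.51% lower), and of the 1155 other genes under 1 CPM 9 were called higher and 2 lower. At an unadjusted p under 0.05, 24 of the 127 were higher and 0 lower in Th2, where 1751 of the 13072 genes were higher and 1221 lower, and 75 of the 1155 genes were higher and 29 lower. Of these 127 genes, 0 had a called difference between the Th2 and the Th1 effect of the inhibitor, with 3 higher and 1 lower at an unadjusted p under 0.05, so the larger count in Th2 is not shown to be a difference between the cultures.

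The genes called higher with SGC0946 in Th2 were Depdc7, Etl4, Zfp503, Bex2 and A930003A15Rik, the last with a provisional name. Etl4, which codes for a scaffold protein, had 25 and 21 counts with SGC0946 against 3 and 5 with SGC0649, a log2 change of 2.50 ± 0.60 (SE, adjusted p = 0.0194), and 20 and 11 counts in KO Th2. Depdc7 had 15 and 19 counts with SGC0946 against 2 and 2 with SGC0649, a log2 change of 3.02 ± 0.68 (adjusted p = 0.0118), and 8 and 10 in KO Th2. Its inhibited WT Th2 libraries were thus above those of KO Th2, where it had not reached the floor. Zfp503 had 18 and 13 counts with SGC0946 against 1 and 3 with SGC0649, a log2 change of 2.89 ± 0.76 (adjusted p = 0.0302). Bex2, a small protein of the brain expressed X-linked family, had 6 and 7 counts with SGC0946 against 1 and 0 with SGC0649, a ratio of 12.5 with a 95% counting interval of 1.87 to 530.0 (adjusted p = 0.0407). In KO Th2 it had 2 and 2 counts, against 1 and 2 in WT Th2, and was on in KO naive cells, with 15 and 14 counts. For A930003A15Rik the counts were 8 and 9 with SGC0946 against 0 and 1 with SGC0649, a ratio of 16.3 with an interval of 2.56 to 682 (adjusted p = 0.0144), and it had 10 and 9 counts in KO Th2. Of the 5, 2 (Etl4 and Zfp503) were among the 64 genes on in KO Th2. The groups did not overlap for any of these genes, yet each rests on few reads: leaving out SGC0649 replicate 2 or SGC0946 replicate 2 in turn left 0 of the 127 genes called, leaving out SGC0946 replicate 1 left 1, and leaving out SGC0649 replicate 1 left 3.

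In both SGC0946 libraries of a culture, 2 genes reached 1 CPM in Th1 and 9 in Th2, and 0 did so in both SGC0649 libraries of either culture. Of 8560 other genes silent in WT, 1 reached it in Th1 and 8 in Th2 with SGC0946. Most of those others had no count in WT without compound, so they began further from 1 CPM than the 127 did. The 2 in Th1 were Sstr3, with 16 and 15 counts with SGC0946 against 7 and 0 with SGC0649 (log2 change 2.07 ± 0.70, adjusted p = 0.263), and Nsg1, a protein of neuronal vesicle traffic, with 14 and 14 against 0 and 5 (2.41 ± 0.72, adjusted p = 0.179). Sstr3 was also above in Th2, with 13 and 6 counts with SGC0946 against 2 and 3 with SGC0649, though neither change passed the test. Wfdc2, a secreted protein with whey acidic protein domains, had 14 and 8 counts with SGC0946 against 2 and 1 with SGC0649 in Th1 (2.74 ± 0.67, adjusted p = 0.0844). Cdc42ep1, an effector of the GTPase Cdc42, had 11 and 11 against 3 and 2 in Th1 (2.06 ± 0.77, adjusted p = 0.322). Neither passed the test, though the compounds did not overlap for either gene. Peg3, an imprinted zinc finger gene, had 9 and 24 counts with SGC0946 against 5 and 7 with SGC0649 in Th2 (1.44 ± 0.59, adjusted p = 0.150). In Th2 the 9 included Etl4, Depdc7 and Zfp503 together with Wnt9a, Ppm1e and Shcbp1l. Wnt9a had 14 and 18 counts with SGC0946 against 14 and 4 with SGC0649 and 4 and 3 without compound, so the gene highest in KO Th2 overlapped between the compounds. Within each of both cultures, 17 of the 127 genes (13.4%, background over all genes 8.86%) had both SGC0946 libraries above both SGC0649 libraries, as did 101 of 1199 other genes under 1 CPM (8.42%), with Sstr3, Htra3, Inpp5j, Ppm1e, Nap1l3, Amotl2 and Shcbp1l among them.

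In CpG content the promoters of these genes lay between those of other silent genes and those of genes in use, as a description without a test. CpG is the dinucleotide at which mammalian DNA is methylated, and many promoters of broadly used genes are rich in it. RefSeq promoter windows (GRCm38.p6, 250 bases before to 50 after the start) were matched for 92 of the 127 genes and for 16072 protein-coding genes. The RefSeq start nearest to the start of the counted gene was taken, and it could lie inside the gene. The median CpG observed over expected was 0.488 for the 92 genes, 0.219 for 5781 other WT-silent genes, 0.753 for 10199 genes not silent in WT and 0.602 for all matched genes. A window with a ratio of at least 0.6 and at least 50% G and C was found in 34.8% of the 92 genes, 14.9% of the other WT-silent genes and 66.5% of the genes not silent in WT. The ratio was similar for genes on in KO naive cells (0.437, 13 genes), Th1 (0.497, 48 genes) and Th2 (0.463, 47 genes). The range among them was wide, as the 250 bases before the RefSeq start matched to Wnt9a and to the 5 genes called with SGC0946 show. The sequences run 5′ to 3′ on the strand of the gene, with every CpG in capitals.
Wnt9a: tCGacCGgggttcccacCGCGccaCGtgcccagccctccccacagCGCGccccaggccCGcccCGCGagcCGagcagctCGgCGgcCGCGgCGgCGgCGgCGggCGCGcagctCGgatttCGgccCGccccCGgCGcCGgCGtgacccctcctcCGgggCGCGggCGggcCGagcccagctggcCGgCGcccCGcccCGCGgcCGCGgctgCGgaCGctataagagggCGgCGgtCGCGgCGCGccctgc
Depdc7: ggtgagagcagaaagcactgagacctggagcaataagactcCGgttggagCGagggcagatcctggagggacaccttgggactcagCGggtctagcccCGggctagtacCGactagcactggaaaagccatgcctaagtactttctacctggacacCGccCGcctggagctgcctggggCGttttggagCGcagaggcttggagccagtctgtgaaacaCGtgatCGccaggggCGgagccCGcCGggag
Zfp503: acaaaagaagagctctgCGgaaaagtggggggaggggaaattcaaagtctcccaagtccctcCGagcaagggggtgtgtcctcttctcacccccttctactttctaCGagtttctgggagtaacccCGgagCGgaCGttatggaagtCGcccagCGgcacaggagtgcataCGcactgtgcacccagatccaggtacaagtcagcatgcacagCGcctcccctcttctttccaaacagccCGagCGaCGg
Bex2: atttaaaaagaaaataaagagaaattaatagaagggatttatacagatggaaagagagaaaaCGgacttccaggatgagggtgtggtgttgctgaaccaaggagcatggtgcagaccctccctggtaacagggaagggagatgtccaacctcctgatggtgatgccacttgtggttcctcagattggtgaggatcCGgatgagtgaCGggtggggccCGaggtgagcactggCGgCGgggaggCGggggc
A930003A15Rik: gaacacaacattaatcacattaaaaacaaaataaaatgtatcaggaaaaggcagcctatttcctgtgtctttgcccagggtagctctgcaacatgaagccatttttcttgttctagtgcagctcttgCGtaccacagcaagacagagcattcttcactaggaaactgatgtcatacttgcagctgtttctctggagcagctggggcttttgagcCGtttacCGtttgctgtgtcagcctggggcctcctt
Etl4: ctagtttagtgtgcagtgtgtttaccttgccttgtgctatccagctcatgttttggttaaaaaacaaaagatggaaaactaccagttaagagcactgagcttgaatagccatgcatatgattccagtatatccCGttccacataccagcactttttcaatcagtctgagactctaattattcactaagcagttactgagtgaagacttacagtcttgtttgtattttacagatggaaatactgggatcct
Wnt9a (chr11:59306680-59306929, plus strand) held 48 CpG in the stretch shown. Depdc7 (chr2:104742858-104743107, minus strand) held 14 and Zfp503 (chr14:21989602-21989851, minus strand) 13. Bex2 (chrX:136068237-136068486, minus strand) held 7, A930003A15Rik (chr16:19884275-19884524, minus strand) 3 and Etl4 (chr2:20289663-20289912, plus strand) 1. The Etl4 window lay inside the counted gene (19909780 to 20810713), so it may not be the promoter in use. With or without Etl4, the windows of the genes called with the inhibitor ran from CpG-poor to CpG-rich.

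**Figure D4:**
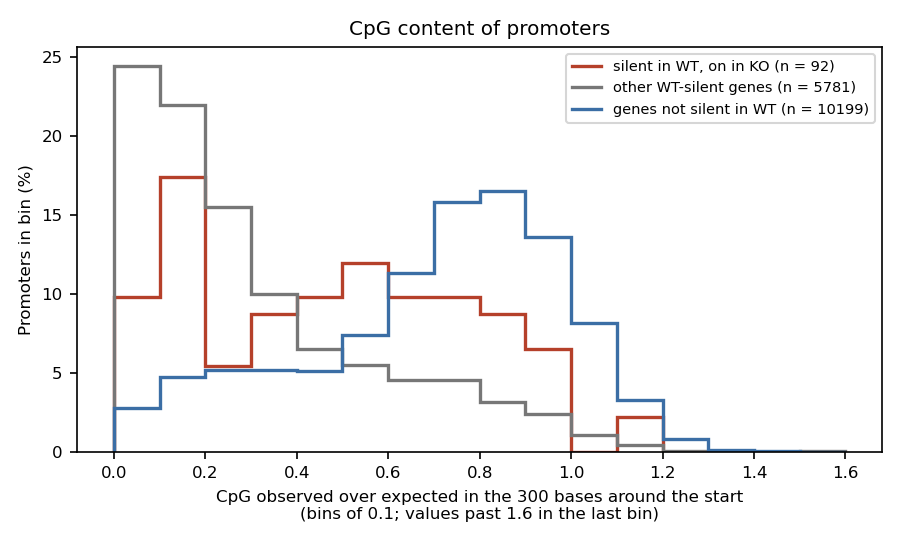
Share of promoters (%, vertical axis) by CpG observed over expected (horizontal axis, bins of 0.1) for 92 genes silent in WT and on in KO (red), 5781 other WT-silent genes (grey) and 10199 genes not silent in WT (blue). The red outline spans both the low range of the grey and the high range of the blue, with a median of 0.488 between 0.219 and 0.753.

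Short motifs were searched on both strands of the 300 bases. TATAAA was found in 13.04% of the 92 windows, against 22.9% of the other WT-silent genes and 12.8% of all matched promoters. TGANTCA, the AP-1 site, was found in 10.9%, against 10.8% of the other WT-silent genes and 7.12% of all. GATAAG was found in 8.70% (6.74% of all), TTCNNNGAA, the STAT core, in 7.61% (7.83% of all) and TGTGGT, the RUNX core, in 14.1% (14.8% of all). In the other WT-silent genes these motifs were found in 9.58%, 9.39% and 17.75%, each above the share in the 92 windows. Among windows of genes on in KO Th1, 9 of 48 held TGANTCA, against 2 of 47 on in KO Th2, and no test was made of this difference. The 127 genes had a median exonic length of 3135 bases over 8 exons. The medians were 1669 bases over 4 exons for the 8687 WT-silent genes and 2975 bases over 7 exons for all. The 8687 include the 127 and 6024 genes with no count in WT. CPM is not scaled by length, so the KO floor itself favours long transcripts.

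Some of the genes lay side by side. Within 500 kb of another of the 127 lay 20 genes, in 8 groups. On chromosome 7 (GRCm38, 140201743 to 140929192), the olfactory receptor genes Olfr524, Olfr525, Olfr530 and Olfr536 and the inflammasome gene Nlrp6 were all on in KO Th1. Olfr524 had 19 and 18 counts in KO Th1 against 6 and 6 in WT Th1, Olfr525 had 13 and 19 against 1 and 1, Olfr530 had 15 and 14 against 1 and 1, and Olfr536 had 18 and 12 against 3 and 3. The 4 receptors, which detect odorants in the nose, had similar low counts, beside the higher Nlrp6. On chromosome 15 (78537015 to 78850902) lay Sstr3, Elfn2 and Cdc42ep1, all on in KO Th1. Klk1b9 and Klk1b11, kallikrein proteases, lay 23815 bases from end to end on chromosome 7 and were on in KO Th2, with 23 and 24 counts in KO Th2 against 0 and 1 in WT Th2 for Klk1b9 and 22 and 36 against 2 and 4 for Klk1b11.

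Genes next to the 127 were then taken by position, among genes outside the set that passed the filter on low counts. That filter used all libraries, KO included, so a gene low in WT could enter through its KO counts. The sets compared below passed the same filter. The nearest tested gene outside the set gave 122 distinct neighbours at a median distance of 14219 bases, 10 of them overlapping. In Th2, 55 of 122 were called higher in KO (45.1%, background 26.5%) and 19 lower (15.6%, background 26.9%). In Th1, 38 were called higher (31.1%, background 24.8%) and 25 lower (20.5%, background 25.8%), and in naive cells 28 higher (23.0%, background 16%) and 10 lower (8.20%, background 12.4%). Next to 8560 other WT-silent genes, 3648 distinct neighbours were called higher in 25.2% and lower in 28.2% of cases in Th2. Neighbours of genes on in KO Th2 were called higher in 35 of 62 cases (56.5%) and lower in 8 (12.9%), those of genes on in KO Th1 higher in 21 of 65 (32.3%) and lower in 11 (16.9%), and those of genes on in KO naive cells higher in 4 of 23 (17.4%) and lower in 3 (13.04%). Restricting to neighbours over 10 kb away left 44.4% higher in Th2, 27.8% in Th1 (background 24.8%) and 15.3% in naive cells (background 16%). In Th1 and naive cells the share at that distance thus lay close to background, with only Th2 well above it. Restricting to the opposite strand left 41.1% higher in Th2. Both choices were made after the values were seen. These are counts over genes of the same libraries, so they carry no test of their own.

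The median log2 change of the 122 neighbours was 0.32 in Th2, 0.22 in Th1 and 0.19 in naive cells. For all genes tested it was -0.01, 0.01 and 0.01. The pairs named here had larger changes than these medians, in either direction. Apobr, a lipoprotein receptor of macrophages that overlaps Il27 on the opposite strand, was higher in KO Th2 by 4.10 ± 0.13 on the log2 scale (SE, adjusted p = 8.27e-13), and by 0.63 ± 0.13 in KO Th1 (adjusted p = 0.000993). Sh3tc1, 17398 bases from Htra3, was higher by 3.97 ± 0.29 in KO Th2 (adjusted p = 7.30e-09) and by 2.92 ± 0.35 in KO Th1 (adjusted p = 3.55e-06). Maoa, the paralogue of Maob and 21464 bases from it, was higher by 3.59 ± 0.41 in KO Th1 (adjusted p = 2.50e-06) and by 1.30 ± 0.39 in KO Th2 (adjusted p = 0.00959). Gcm2, a transcription factor of the parathyroid 4319 bases from Sycp2l, was higher by 4.65 ± 0.42 in KO Th2 (adjusted p = 1.54e-07). Tcp11l1, 9615 bases from Depdc7, was higher by 2.78 ± 0.34 in KO Th1 (adjusted p = 5.79e-06) and 3.43 ± 0.47 in KO Th2 (adjusted p = 1.00e-05). Other neighbours were lower. Dclk1, a kinase that binds microtubules 86127 bases from Nbea, was lower in KO Th2, with a log2 change of -4.10 ± 0.58 (adjusted p = 1.47e-05), and in KO Th1 (-2.26 ± 0.16, adjusted p = 9.44e-09). Aipl1, 238316 bases from Wscd1, was lower in KO Th2 (-3.63 ± 1.14, adjusted p = 0.0131). All named pairs were picked after their values were seen.

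**Figure D5:**
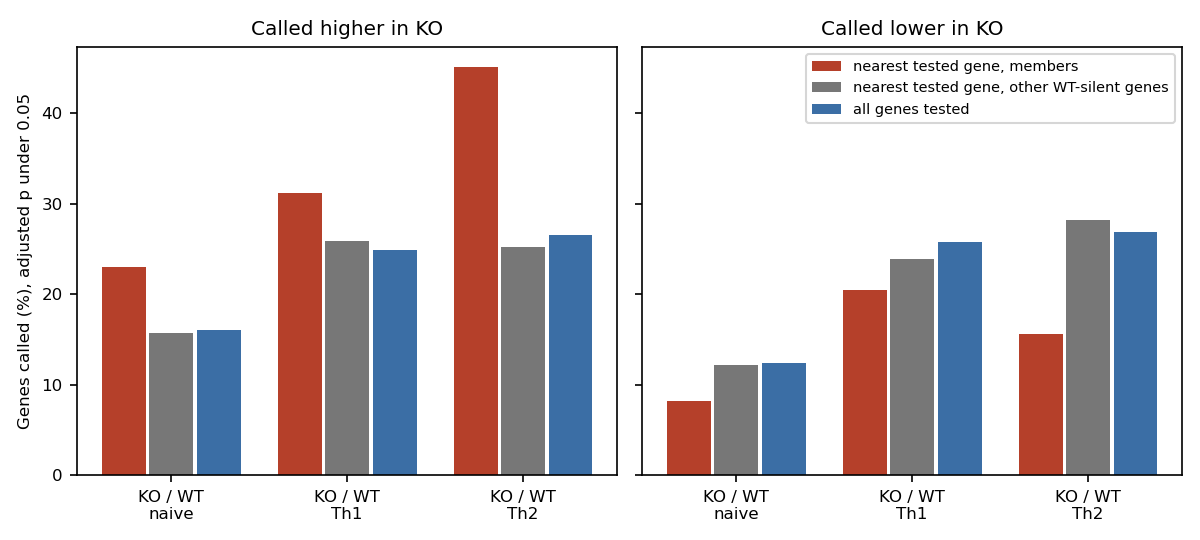
Share of genes (%, vertical axis, from 0) called higher (left) or lower (right) in KO than in WT at an adjusted p under 0.05, for the nearest tested gene to each of the 127 genes (red, 122 genes), the nearest tested gene to other WT-silent genes (grey, 3648 genes) and all 13072 genes tested (blue). In Th2, 45.1% of the red genes were higher, against 25.2% of the grey and 26.5% of all.

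A list of 61 genes of silencing systems, with some that act against them, was read in the same cells. In KO Th2, 29 of the 61 fell and 5 rose, in KO Th1 28 fell and 9 rose, and in KO naive cells 14 fell and 3 rose, beside the backgrounds given above. The median log2 change was -0.29 in Th2, -0.18 in Th1 and -0.08 in naive cells, where the medians of all genes were -0.01, 0.01 and 0.01. Of 28 genes listed under Polycomb, 13 fell and 2 rose in Th2 (background 26.5% higher and 26.9% lower). The 28 include Kdm6a and Kdm6b, which remove the methyl mark that Polycomb places on histone H3. Kdm6b fell in KO Th1, with a log2 change of -1.07 ± 0.11 (SE). Ezh2, the catalytic subunit of Polycomb repressive complex 2, averaged 54.2 ± 9.63 CPM in KO Th2 and 213 ± 17.2 CPM in WT Th2 (SD, n = 2 each), a log2 change of -1.81 ± 0.11 (SE, adjusted p = 1.03e-09). Its partners Eed (-0.93 ± 0.08, adjusted p = 4.36e-08) and Suz12 (-0.93 ± 0.08, adjusted p = 6.72e-08) fell with it. Of 9 DNA methylation genes 5 fell and 0 rose in Th2. In Th1, 4 fell and 1 rose (background 24.8% higher and 25.8% lower), the latter being Uhrf1 (0.68 ± 0.21, adjusted p = 0.0152). Dnmt3a, which methylates DNA de novo, averaged 61.0 ± 1.55 CPM in KO Th1 and 168 ± 5.87 CPM in WT Th1 (-1.60 ± 0.09, adjusted p = 1.63e-09), and fell in Th2 as well (-0.95 ± 0.09, adjusted p = 2.51e-07). Tet1 and Tet3, which act against DNA methylation, fell in Th1 too, by 1.64 and 1.24 on the log2 scale, so the list did not move in one functional direction.

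Of the genes of histone H3 lysine 9 methylation, 4 of 11 rose and 3 fell in KO Th1 (background 24.8% higher and 25.8% lower), with Suv39h1 at 115 ± 14.2 CPM in KO and 69.1 ± 3.69 CPM in WT (0.60 ± 0.16, adjusted p = 0.00584), a call that was lost without KO Th1 replicate 2 or WT Th1 replicate 1. In KO Th2, 1 of 11 rose and 4 fell (background 26.5% higher and 26.9% lower), with Suv39h1 at 24.9 ± 4.22 CPM in KO and 50.5 ± 7.34 CPM in WT (-0.85 ± 0.18, adjusted p = 0.000732). Of 13 genes of histone deacetylase complexes, 7 fell and 2 rose in Th2 and 8 fell and 2 rose in Th1. Hdac7 fell in both, by 1.34 in Th1 (adjusted p = 1.35e-06) and by 1.19 in Th2 (adjusted p = 2.85e-06) on the log2 scale. Whether these levels bear on the 127 genes was not tested.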

How the data were processed

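The series holds 20 RNA-seq libraries in 10 groups of 2. Read counts per gene were deposited, and featureCounts 1.5.3 made them, with its strand option at 2 and the GRCm38 annotation of Ensembl 84, per the file headers. Gene lengths in bases, a deposited value of another kind, served only for levels per kilobase. Per the submitters' processing notes, the tools included edgeR and limma, with no version, and the aligner is not given in the sources used here.

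CPM is a count over the protein-coding total of its library, times 1e6. The 127 genes, the silencing list, the marker lists and the features compared were chosen with earlier results of these data known. Genes were named by level in KO or with SGC0946, by nearness to a threshold, or by passing a test, and provisional names were left out except where stated. Genes named as neighbours, for lying close together, as one of the genes at 1 CPM with SGC0946, or under the mirrored rule were picked after their values were seen. Of 22048 genes, 13072 passed filterByExpr. All libraries were fitted together, 1 mean per group, with TMM factors of 0.878 to 1.08, by the robust quasi-likelihood method of edgeR 4.0.16 (R 4.3.3), which left 10 residual degrees of freedom at a biological coefficient of variation of 0.0963. Benjamini-Hochberg adjustment ran over all genes tested. A gene was called where its adjusted p was under 0.05. The fit was tested on simulated data. Alternatives were limma voom (limma 3.58.1), DESeq2 1.42.0, other scalings, filters and thresholds, and each library left out.

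Same-numbered libraries deviated together, with correlations of deviations from group means of 0.192 to 0.700 over 15 pairs of WT cultures and 0.133 to 0.283 over 3 pairs of KO and WT, so the numbers were taken to pair the libraries, which rests on these values alone. All calls given come from the fit without a replicate block, and a fit with it was an alternative. Columns of 2 SGC0946 libraries carry another replicate number than their titles and were matched by library number. Counting intervals are exact, conditional on the total, and cover counting error only.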

Additional observations from a re-analysis of the deposited data

How the results depend on the processing

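The number of genes the rule finds depends on its thresholds: 36 with a WT ceiling of 0.25 CPM, 357 with a ceiling of 1 CPM, 301 with a KO floor of 0.5 CPM, 45 with a floor of 2 CPM and 79 when the ceiling also holds in the 4 SGC0649 libraries. TMM-scaled CPM gave 123, of which 119 were shared, and leaving out one library at a time gave 132 to 189. With SGC0946, 17 genes in Th1 and 25 in Th2 reached 0.5 CPM in both libraries, and 0 and 1 reached 2 CPM. Leaving out one SGC0946 library gave 5 to 8 genes at 1 CPM in Th1 and 11 to 15 in Th2. Of genes called in Th2, 0 were left with the libraries of the contrast alone, where the filter kept 11 of the 127 in Th2 and 4 in Th1. DESeq2 called 0 and gave no adjusted p for 120 of the 127 in Th2 and 104 in Th1. Leaving out one library gave 0 to 3. In Th1, limma voom called 1. The fit with a replicate block called 0 in Th1 and 6 in Th2, and changed no other count by over 1.5 times. In naive cells, leaving out one library gave 7 to 14 called genes of the silencing list and 18 to 33 called neighbours. Few counts per gene limit all single-gene results.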

Other observations

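The mirror of the rule, under 0.5 CPM in all 6 KO libraries and at 1 CPM or more in both libraries of a WT group, found 45 genes, against 127 in the direction described above. The highest by WT group mean were Cpne6 at 25.7 CPM, Syt12 at 11.8 CPM and Plce1 at 8.40 CPM. Il9 and Il33, cytokines of type 2 immunity, were among them at 2.14 and 2.05 CPM. Outside the protein-coding class, the same rule found 38 of 25681 genes, of which 9 were immunoglobulin variable segments and 10 were long intergenic RNAs. Meg3, an imprinted RNA, was one of these, with 5.76 and 4.36 CPM in KO Th2. Igkv6-14, an immunoglobulin kappa segment, had 12.98 and 6.32 CPM in KO naive cells, the group in which the B cell and plasma cell markers were also above WT. Those markers were higher in replicate 1, but Ighv5-9 was higher in replicate 2, at 2.13 and 12.8 CPM, as were Ighv9-1 and Igkv4-61. Ighv1-23 was on in KO Th1, at 2.83 and 1.74 CPM, and not in KO naive cells. The part of B cells in these levels was not tested.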
